A study of Homo sapiens with 12 samples.

Results

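The genes described here are 32 genes of sterol and fatty acid synthesis, with their regulators and a few cholesterol transporters taken as one list. They were followed on 12 Affymetrix U133A arrays of RD cells, an established line from an embryonal rhabdomyosarcoma, a tumour of skeletal muscle lineage. Each gene was read by the probe set that carries its symbol alone in the array annotation, taking the brightest where there were several. Of the 32 genes, 29 had such a probe set, out of 11963 genes on the array, and 28 of them passed the filter on dim signals, out of 8124 genes. CYP51A1 and FADS1 lay only on probe sets shared with other symbols, FDFT1 was not analysed here, and ABCA1 fell under the filter and was not tested.

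All cells were RD cells grown in serum-containing medium and carried a transduced construct. One set carried PAX3-FKHR-ER, the fusion transcription factor of alveolar rhabdomyosarcoma joined to a modified ligand-binding domain of the estrogen receptor, which 4-hydroxytamoxifen (4-OHT) activates. The other carried the vector pK1 with no insert. The 4 groups of 3 arrays were PAX3-FKHR-ER with 30 nM 4-OHT for 24 h, PAX3-FKHR-ER without 4-OHT, pK1 with the same 4-OHT treatment, and pK1 without it. The design speaks of separate cell populations, and the labels do not say whether a replicate number marks one, so p-values measure the spread between these samples. The fusion is added to a line that does not carry it naturally, so these groups model its activation and not a tumour that arose with it.

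Animal cells make cholesterol from acetyl-CoA through the mevalonate pathway, which builds isoprenoid units and joins them into squalene, and through a longer series of steps that turn squalene into cholesterol. Fatty acid synthesis draws on the same acetyl-CoA, and elongases and desaturases then lengthen and bend the chains. Both arms are known to be driven by the SREBP transcription factors, which SCAP carries to the Golgi for activation when sterols are low and INSIG proteins hold back when sterols are high, so that enzymes of the pathway often move together.

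The arrays of replicate 1 stood apart from the other 8 in every group. The 24 probe sets for poly-A control RNA had a median signal of 2.58 to 7.41 on the 4 arrays of replicate 1, against 118 to 291 on the other 8. Pearson r of the log2 signals over all tested probe sets was 0.957 to 0.982 among replicate 1 arrays and 0.815 to 0.869 between them and the others, which correlated at 0.867 to 0.982 among themselves. The brightest PAX3 probe set without 4-OHT read 98.9 and 105 in replicates 2 and 3 of PAX3-FKHR-ER, where pK1 had 41.5 and 30.6, but in replicate 1 it read 17.6 under the PAX3-FKHR-ER label and 49.4 under that of pK1. FOXO1, the other partner of the fusion, likewise read 142 under the PAX3-FKHR-ER label in replicate 1 and 214 under that of pK1. With 4-OHT in replicate 1, PAX3 read 58.9 under PAX3-FKHR-ER and 57.8 under pK1, and FOXO1 read 138 and 121. These probe sets, which may also read the cells' own transcripts, thus went against the labels in replicate 1 without 4-OHT and hardly separated the constructs there with it. The groups below are therefore those the labels give, and results are given with all 12 arrays and with the 8 arrays of replicates 2 and 3. Of 8 skeletal muscle markers, 5 of the 7 with a probe set passed the filter, while 2 of 6 adipocyte markers and 1 of 5 hepatocyte markers did so. Those were CIDEC at 49.3 to 102, LPL at 34 to 59.7 and TTR at 20.8 to 69.6, and under the filter FABP4, APOA1 and APOB reached 46.9, 36.4 and 33.7 and the defining genes ADIPOQ, PLIN1, LEP, ALB and CYP7A1 at most 22.4. The sums over these lists were 116 to 199, 116 to 143, 113 to 176 and 186 to 197 for adipocyte and 89.9 to 116, 41 to 130, 55.1 to 85.6 and 78.6 to 101 for hepatocyte markers, in the order PAX3-FKHR-ER with and without 4-OHT, then pK1 with and without it. Of 5 fibroblast markers 3 passed, of 5 epithelial markers 2, and of 4 blood markers with a probe set 2. Over all groups their sums were 1124 to 7063, 746 to 1937 and 114 to 291, against 677 to 5290 for muscle. COL3A1 reached 6273 and KRT18 1868, so high signal was not particular to the muscle markers. Signals and sums of different probe sets cannot be ranked against each other, so these values do not measure the share of any cell type.

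No sterol or fatty acid synthesis gene changed past the threshold, an adjusted p of 0.05, in any comparison. In limma's fit to the 12 arrays 0 of 28 were called for 4-OHT under PAX3-FKHR-ER, for 4-OHT under pK1, for the difference of those responses, or for PAX3-FKHR-ER against pK1 without or with 4-OHT, where 0% of the 13329 probe sets were called in each. At an unadjusted p of 0.05 the counts in that order were 0, 0, 0, 2 and 3 of 28, against 0.465%, 0.540%, 0.293%, 2.08% and 2.0% of all probe sets. With the replicate number as a block the 12 arrays again gave 0 calls among the members and 0% of probe sets. The 8 arrays gave 0 members and, for the constructs, 0.00750% of probe sets without and 0.0975% with 4-OHT.

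The 8 arrays with the replicate as a block, which compares arrays of the same number, was the setting that called most probe sets. It called 1.40% of them for 4-OHT under PAX3-FKHR-ER, 0% for 4-OHT under pK1, 0.0525% for the difference, 0.00750% for the constructs without 4-OHT and 0.158% with it, and still 0 of 28 members. At an unadjusted p of 0.05 it gave 4 members for 4-OHT under PAX3-FKHR-ER, where 11.8% of probe sets passed, and 1 under pK1, where 5.70% did. It gave 3 for the difference against 9.85%, 5 for the constructs without 4-OHT against 9.75%, and 7 with 4-OHT against 13.0%. As a share of the 28 genes those 4-OHT counts lay near the background, and the 5 and 7 between constructs lay above it. For 4-OHT the block was the pair of the same construct and number, and between constructs the replicate number alone. The construct fits, with or without a block, thus treat arrays with and without 4-OHT of the same construct and number as independent. Deviations from group means of such arrays correlated at r = 0.703 to 0.851, so p-values between constructs may be too small. Fold changes throughout are differences of log2(signal + 16), a scale that understates the change of dim genes, and signals are linear units that cannot be compared between probe sets.

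**Figure D1:**
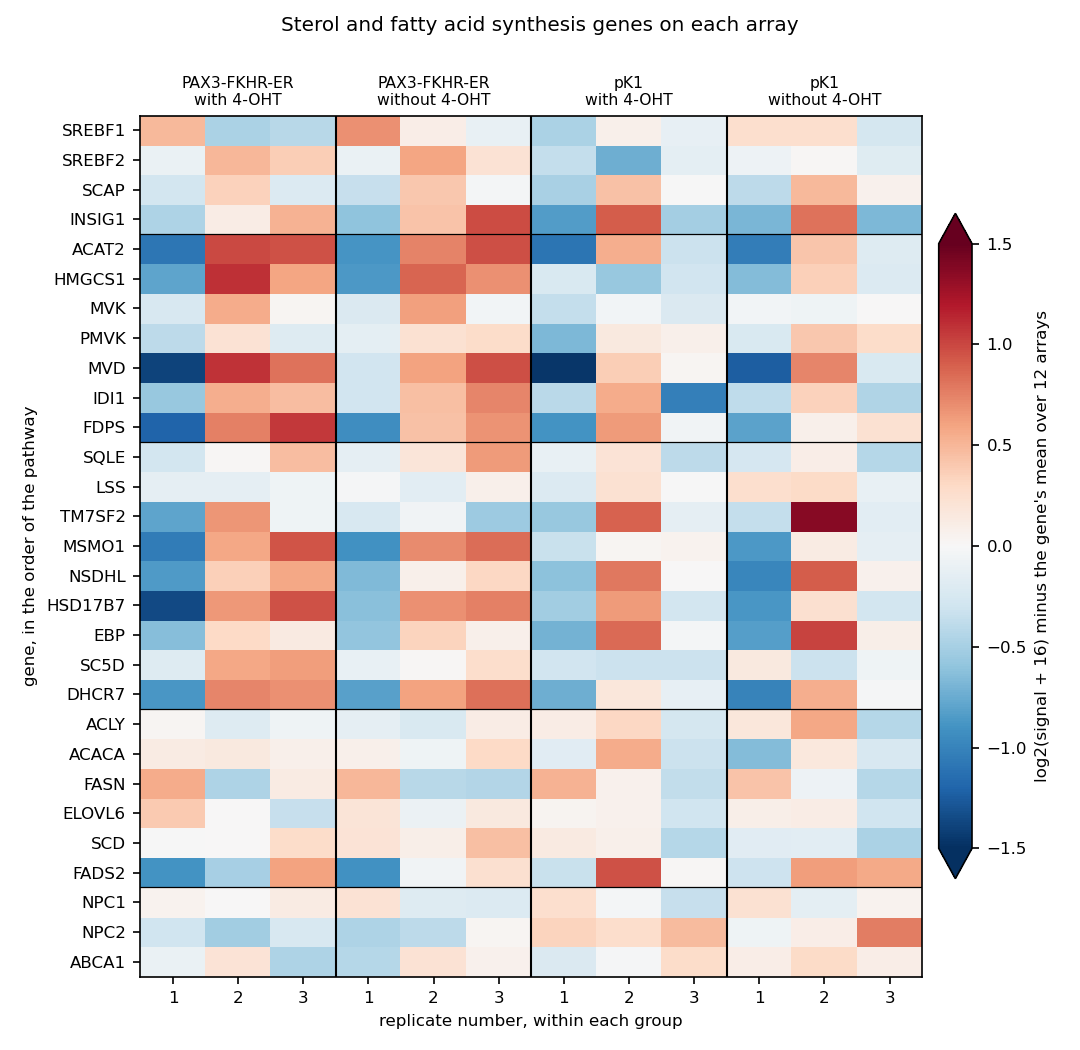
Signal of each of the 29 measured genes (rows, ordered from regulators to transport) on each of the 12 arrays (columns, 3 replicates in each of 4 groups), as log2(signal + 16) minus the gene's mean over the 12 arrays. Sterol enzymes are mostly blue in the replicate 1 column of all 4 groups and mostly red in replicates 2 and 3 of the PAX3-FKHR-ER groups and in replicate 2 of the pK1 groups.

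Of the regulators, SREBF2 encodes SREBP-2, the main activator of sterol genes. Its signal was 180, 282 and 256 in replicates 1, 2 and 3 of PAX3-FKHR-ER with 4-OHT and 180, 302 and 228 without it. It was 149, 111 and 174 in pK1 with 4-OHT and 184, 198 and 169 without. The PAX3-FKHR-ER arrays of replicates 2 and 3 all lay above the pK1 arrays, whereas in replicate 1 the constructs overlapped. With 4-OHT the constructs differed by 0.66 ± 0.25 (log2, SE, n = 3 each, limma adjusted p = 1), and by 0.87 ± 0.27 in the 8 arrays with the block (limma adjusted p = 0.263). A second SREBF2 probe set did not show this, with -0.02 over the 12 arrays.

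SREBF1, which encodes the SREBP-1 isoforms that favour fatty acid genes, read 158, 73.2 and 77 in PAX3-FKHR-ER with 4-OHT, against 183, 117 and 98.3 without it. It was lower with 4-OHT in all 3 pairs, at log2 differences of -0.19, -0.58 and -0.30, and in pK1 the pairs were -0.72, -0.17 and 0.14. The fitted change under PAX3-FKHR-ER was -0.44 ± 0.19 in the 8 arrays with the block (SE, n = 2 each, limma adjusted p = 0.404). The group ranges with and without 4-OHT overlapped.

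INSIG1, which retains SCAP when sterols are plentiful and is itself an SREBP target, had signals of 214, 327 and 439 in PAX3-FKHR-ER with 4-OHT, against 193, 410 and 606 without. In pK1 it was 161, 577 and 206 with 4-OHT, against 181, 540 and 182 without. Replicate 2 of pK1 was far above the other pK1 arrays, so the construct difference without 4-OHT was -0.38 in replicate 2 but 1.65 in replicate 3. The 8 arrays with the block put the 4-OHT change under PAX3-FKHR-ER at -0.38 ± 0.12 (SE, limma adjusted p = 0.249), and its 3 probe sets gave -0.38, -0.31 and 0.16. SCAP, the escort of the SREBPs, read 230, 362 and 242 with and 219, 380 and 276 without 4-OHT under PAX3-FKHR-ER, and no pair of any comparison moved it by more than 0.22.

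Promoter sequences of SREBF2, HMGCS1 and MSMO1 are shown because these 3 genes were higher in PAX3-FKHR-ER than in pK1 on every array of replicates 2 and 3, under every scaling tried. They run from 250 bases before to 50 after the gene's start on the gene's own strand, from RefSeq on GRCh38.p14: SREBF2 at chr22:41832855-41833154 (plus strand), HMGCS1 at chr5:43313363-43313662 (minus strand) and MSMO1 at chr4:165327419-165327718 (plus strand). Capitals mark matches on either strand to the sterol regulatory element searched as TCACNCCAC and to the CCAAT box.
SREBF2: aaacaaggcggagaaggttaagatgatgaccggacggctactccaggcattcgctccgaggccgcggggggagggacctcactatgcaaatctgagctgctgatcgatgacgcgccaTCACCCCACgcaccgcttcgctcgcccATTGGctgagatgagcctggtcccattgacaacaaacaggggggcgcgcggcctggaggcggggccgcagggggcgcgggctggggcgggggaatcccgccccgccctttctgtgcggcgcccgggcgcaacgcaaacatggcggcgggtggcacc
HMGCS1: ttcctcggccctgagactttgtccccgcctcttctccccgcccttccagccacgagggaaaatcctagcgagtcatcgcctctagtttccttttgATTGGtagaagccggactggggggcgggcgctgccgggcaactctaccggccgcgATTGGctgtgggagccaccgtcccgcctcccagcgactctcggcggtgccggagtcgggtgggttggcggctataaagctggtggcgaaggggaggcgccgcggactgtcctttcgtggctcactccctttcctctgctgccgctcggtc
MSMO1: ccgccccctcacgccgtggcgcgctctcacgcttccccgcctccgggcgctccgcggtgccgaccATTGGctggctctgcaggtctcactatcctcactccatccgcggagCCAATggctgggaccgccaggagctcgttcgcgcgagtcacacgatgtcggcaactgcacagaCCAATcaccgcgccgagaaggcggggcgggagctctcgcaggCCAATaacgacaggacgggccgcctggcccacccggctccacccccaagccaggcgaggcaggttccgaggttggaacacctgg
The sterol element TCACCCCAC lies 133 bases before the start of SREBF2, at position -133, with a CCAAT box on the other strand at -106. HMGCS1 has CCAAT boxes at -155 and -100, and MSMO1 at -185, -139, -76 and -34. Promoters were held for 28 of the 32 genes, 38 promoters in all, and the TCACNCCAC motif was in 1 of them (2.63%), against 396 of 35116 RefSeq promoters (1.13%). CCAAT was in 24 of 38 (63.2%), from 20 genes, against 34.6% of all promoters. The motifs do not overlap each other, and a match describes letters in a window and not a bound site. Only these letters in this window were searched, so a promoter without a match may still hold a sterol element elsewhere or in other letters.

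The sterol synthesis enzymes, 16 genes from the first thiolase step to the last reductase, shared a pattern across arrays. Relative to each gene's mean over the 12 arrays, their median was -0.79, 0.58 and 0.59 in replicates 1, 2 and 3 of PAX3-FKHR-ER with 4-OHT and -0.44, 0.45 and 0.66 without. In pK1 it was -0.54, 0.30 and -0.13 with 4-OHT and -0.73, 0.36 and -0.13 without. Replicate 1 was lowest in each group, and replicate 3 was high in PAX3-FKHR-ER only. The median over all tested probe sets stayed between -0.03 and 0.06 on every array.

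The shift of replicate 1 was broad among the enzymes. Of the 28 genes, 9 (32.1%) were lower on all 4 arrays of replicate 1 than on any of the other 8, namely SCAP, ACAT2, MVD, FDPS, MSMO1, NSDHL, HSD17B7, EBP and DHCR7, against 10.3% of all probe sets. Only FASN (3.57%) was higher there without overlap, against 11.0% of all probe sets. Of 21 further probe sets of these genes above the filter, 4 from 4 genes were lower in replicate 1 without overlap. Poly-A control signal was low on the same 4 arrays, and its part in this was not tested.

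In the mevalonate steps, ACAT2, the cytosolic thiolase that joins acetyl-CoA units, had signals of 276, 1218 and 1188 in PAX3-FKHR-ER with 4-OHT and 319, 1021 and 1201 without. In pK1 they were 275, 888 and 481 with 4-OHT and 286, 814 and 528 without. Replicate 1 lay between 275 and 319 whatever the construct, and in replicates 2 and 3 every PAX3-FKHR-ER array was above every pK1 array. The construct difference with 4-OHT was 0.00, 0.45 and 1.28 by replicate, and 0.86 ± 0.28 in the 8 arrays with the block (SE, limma adjusted p = 0.284).

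HMGCS1, the synthase that makes HMG-CoA, read 70.9, 305 and 210 in PAX3-FKHR-ER with 4-OHT and 66.4, 258 and 226 without. In pK1 it read 112, 85.3 and 107 with 4-OHT and 79.6, 177 and 114 without. Over all 12 arrays the groups with 4-OHT averaged 195 ± 118 in PAX3-FKHR-ER and 101 ± 14.3 in pK1 (SD, n = 3 each). The PAX3-FKHR-ER arrays were above the pK1 arrays in replicates 2 and 3 and below them in replicate 1. The difference with 4-OHT was 1.27 ± 0.26 in the 8 arrays with the block (SE, limma adjusted p = 0.146) and 0.66 ± 0.53 over 12 arrays (SE, limma adjusted p = 1). A second HMGCS1 probe set gave 1.03 and 0.70 in the same fits. Without the fusion, 4-OHT left HMGCS1 at -0.51 ± 0.21 in the 8 arrays with the block (SE, limma adjusted p = 0.844). That value was set by replicate 2, where the pair differed by -0.93 against -0.09 in replicate 3.

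The kinases MVK and PMVK, which phosphorylate mevalonate in turn, had brightest-probe-set signals between 337 and 678 for MVK and between 92.2 and 212 for PMVK. Dimmer MVK probe sets varied more, from 14.3 to 178 and from 11 to 140, and both were higher in PAX3-FKHR-ER than in pK1 without overlap in replicates 2 and 3. One of them was also lower in replicate 1 without overlap, by -1.48 on the log2 scale. PMVK was lower with 4-OHT in all 3 pairs of pK1, at log2 differences of -0.45, -0.26 and -0.20, while under PAX3-FKHR-ER the pairs were -0.25, 0.00 and -0.47. MVD, the decarboxylase that follows, was dim, at 1.68 to 23.8 in replicate 1 and 25.6 to 87.7 in the others, so its pairs in replicate 1 carry little weight. IDI1, which isomerises the isoprenoid unit, was read by a probe set type that can also bind near-identical copies, and its construct difference in replicate 3 was 1.49 with and 1.19 without 4-OHT against -0.01 and 0.10 in replicate 2. FDPS, which makes farnesyl diphosphate, spanned 201 to 269 in replicate 1 and 465 to 1020 elsewhere, with 827 and 1020 in PAX3-FKHR-ER with 4-OHT and 658 and 780 without, in replicates 2 and 3.

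Among the steps from squalene to cholesterol, MSMO1, the methylsterol oxidase, read 117, 396 and 514 in PAX3-FKHR-ER with 4-OHT and 131, 436 and 478 without. In pK1 it read 203, 265 and 270 with 4-OHT and 136, 283 and 234 without. In replicates 2 and 3 the constructs did not overlap, and the difference without 4-OHT was 0.79 ± 0.21 in the 8 arrays with the block (SE, limma adjusted p = 0.363). In replicate 1 it was -0.05 without and -0.73 with 4-OHT.

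SC5D, the sterol desaturase acting late in the pathway, came nearest to the threshold. Its signal was 372, 651 and 670 in PAX3-FKHR-ER with 4-OHT, against 397, 434 and 519 without. In pK1 it was 349, 339 and 339 with 4-OHT, against 477, 339 and 410 without. The arrays of PAX3-FKHR-ER with 4-OHT in replicates 2 and 3 were the highest of the 12, and that of replicate 1 fell among the rest. In the 8 arrays with the block, SC5D with minus without 4-OHT was 0.46 ± 0.13 under PAX3-FKHR-ER (SE, limma adjusted p = 0.17) and -0.13 ± 0.13 under pK1 (SE, limma adjusted p = 0.92). The difference of these was 0.59 ± 0.19 (SE, limma adjusted p = 0.345), and the constructs with 4-OHT differed by 0.93 ± 0.18 (SE, limma adjusted p = 0.135). Over 12 arrays the 4-OHT change under PAX3-FKHR-ER was 0.28 ± 0.24 (SE, limma adjusted p = 1).

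DHCR7, the reductase that ends one branch of the pathway, read 167, 543 and 523 in PAX3-FKHR-ER with 4-OHT and 175, 493 and 576 without, against 186, 362 and 291 in pK1 with 4-OHT and 151, 472 and 315 in pK1 without. HSD17B7, the sterol ketone reductase, read 54.1, 264 and 330 in PAX3-FKHR-ER with 4-OHT and 99.8, 272 and 287 without, against 109, 263 and 132 in pK1 with 4-OHT and 82, 196 and 132 in pK1 without. In both genes the difference between constructs was larger in replicate 3 than in replicate 2, and for HSD17B7 the probe set can also bind near-identical copies. TM7SF2, a sterol reductase, was instead highest in pK1, with the array of replicate 2 without 4-OHT at 166 and all other arrays between 24.7 and 114. Its 4-OHT change under PAX3-FKHR-ER was -0.55 in replicate 1 and 0.71 and 0.48 in replicates 2 and 3.

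SQLE, the squalene epoxidase often named as a rate-setting step, was lower with 4-OHT in each PAX3-FKHR-ER pair, at 726, 893 and 1216 with 4-OHT and 798, 998 and 1377 without. It was higher with 4-OHT in each pK1 pair, at 812, 1016 and 668 with 4-OHT and 739, 945 and 648 without. The sizes were small, -0.13, -0.16 and -0.18 against 0.13, 0.10 and 0.04, and the difference of -0.25 ± 0.38 did not pass (SE, limma adjusted p = 1). In the 12 arrays with the block the difference was -0.25 ± 0.13 (SE, limma adjusted p = 0.926). LSS, the cyclase that forms lanosterol, ranged only from 357 to 509 over the 12 arrays. NSDHL and EBP, which act between lanosterol and the final sterols, were highest in pK1 replicate 2, with EBP at 591 and 668 there against at most 409 on any other array. A dimmer EBP probe set was instead higher in PAX3-FKHR-ER in replicates 2 and 3, without overlap. It read 219 and 287 with and 219 and 232 without 4-OHT, against 178 and 146 with and 200 and 174 without in pK1.

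**Figure D2:**
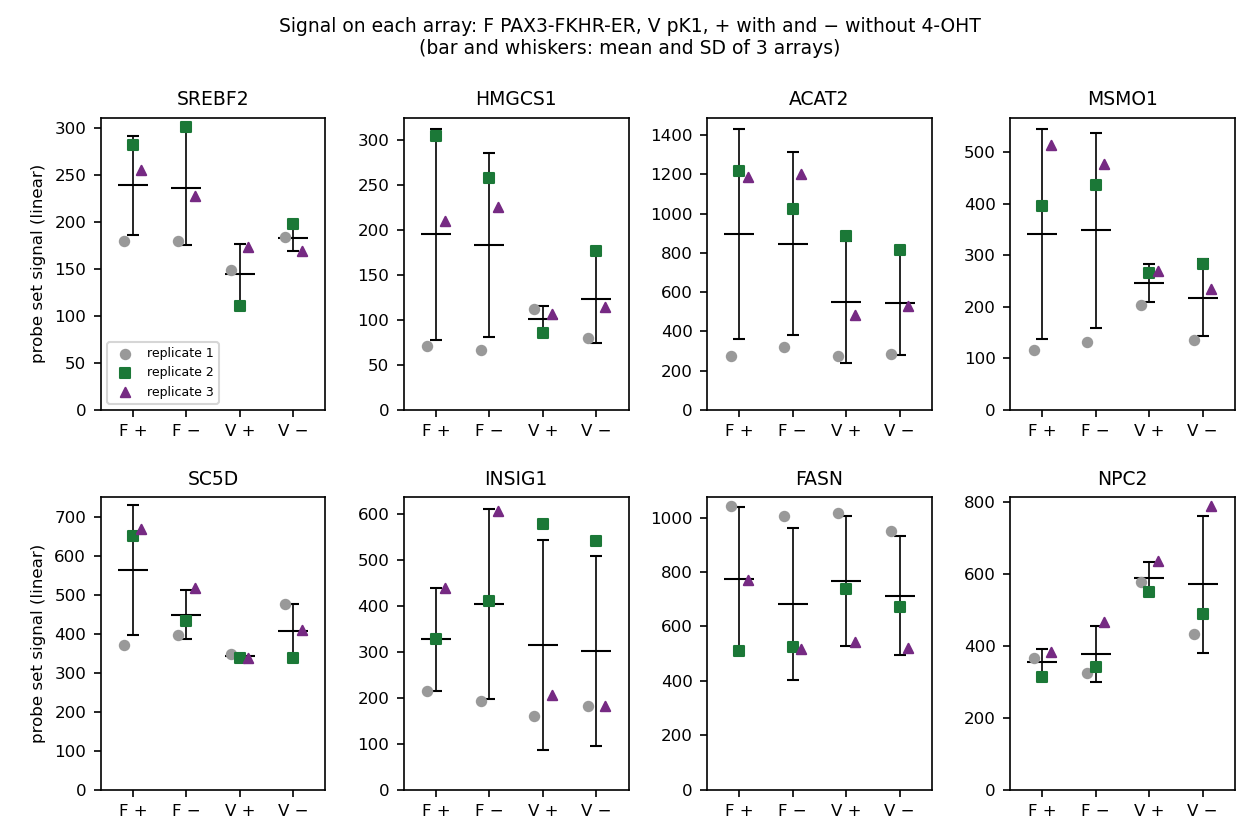
Linear probe set signal of 8 genes on each array, with the groups PAX3-FKHR-ER (F) and pK1 (V), each with (+) and without (−) 4-OHT, on the horizontal axis. Points are arrays marked by replicate number, and the bar and whiskers are the mean and SD of 3 arrays; ACAT2 and MSMO1 show replicate 1 at the bottom of each group, and NPC2 shows PAX3-FKHR-ER below pK1 at each replicate number.

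For the 6 genes of fatty acid synthesis and desaturation, the median relative to each gene's mean over the 12 arrays lay between -0.36 and 0.20 on every array. In replicate 1 PAX3-FKHR-ER had 0.08 with 4-OHT and 0.14 without, and pK1 had 0.07 with it and -0.04 without. In replicate 3 it was 0.10 and 0.20 in PAX3-FKHR-ER, against -0.31 and -0.36 in pK1. The construct difference there had a median of 0.44 with and 0.49 without 4-OHT, with 5 and 4 of 6 genes higher. In replicate 2 that difference went the other way, at -0.46 with and -0.28 without 4-OHT, with 0 and 1 of 6 genes higher. In replicate 1 it was -0.02 with and 0.09 without 4-OHT. Whether this pattern differs from that of the sterol enzymes was not tested. FASN, the fatty acid synthase, read 1042, 508 and 769 in PAX3-FKHR-ER with 4-OHT, against 1006, 525 and 518 without. In pK1 it read 1017, 739 and 541 with 4-OHT, against 951, 670 and 519 without. All 4 arrays of replicate 1 were above the other 8, so FASN was high where most sterol enzymes were low, while construct and treatment groups overlapped. ACLY, which supplies cytosolic acetyl-CoA, ranged from 844 to 1714 and ACACA, which makes malonyl-CoA, from 120 to 299, and in both the highest array was one of pK1 replicate 2.

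SCD, the desaturase that makes oleate, read 757, 764 and 925 in PAX3-FKHR-ER with 4-OHT, against 881, 809 and 1051 without. In pK1 it read 839, 802 and 561 with 4-OHT, against 673, 683 and 544 without. As for SQLE, each PAX3-FKHR-ER pair was lower with 4-OHT and each pK1 pair higher, with a difference of -0.35 ± 0.30 (SE, limma adjusted p = 1). In the 12 arrays with the block the difference was -0.35 ± 0.14 (SE, limma adjusted p = 0.926). A further pair of SCD probe sets gave -0.94 and -0.85 in pK1, values carried by the array of replicate 2 with 4-OHT, which read 13.8 and 51.3 where the array without it read 276 and 380. In the other pK1 pairs these probe sets read 298 and 183 with 4-OHT against 232 and 165 without, and 481 and 351 with it against 459 and 367 without. The fourth SCD probe set gave -0.06 in pK1. ELOVL6, an elongase of saturated chains, ranged from 120 to 211, and FADS2, a desaturase of polyunsaturated chains, was lower in PAX3-FKHR-ER than in pK1 in all 3 pairs without 4-OHT, at log2 differences of -0.60, -0.67 and -0.32, while with 4-OHT the pairs were -0.57, -1.44 and 0.59.

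NPC2, which carries cholesterol inside the lysosome, had the steadiest difference between the constructs. It read 366, 313 and 383 in PAX3-FKHR-ER with 4-OHT and 325, 341 and 466 without. In pK1 it read 578, 550 and 636 with 4-OHT and 434, 489 and 788 without. PAX3-FKHR-ER was lower in all 6 pairs, at log2 differences of -0.64, -0.78 and -0.71 with 4-OHT and -0.40, -0.50 and -0.74 without, in replicate 1 as in the others. The 12-array differences were -0.71 ± 0.24 with and -0.55 ± 0.24 without 4-OHT (SE, n = 3 each, limma adjusted p = 1 for both). NPC1, its membrane partner, ranged from 149 to 233 with overlapping groups, and ABCA1, the exporter of cellular cholesterol, was listed at 19.2 to 43.2 and not tested.

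**Figure D3:**
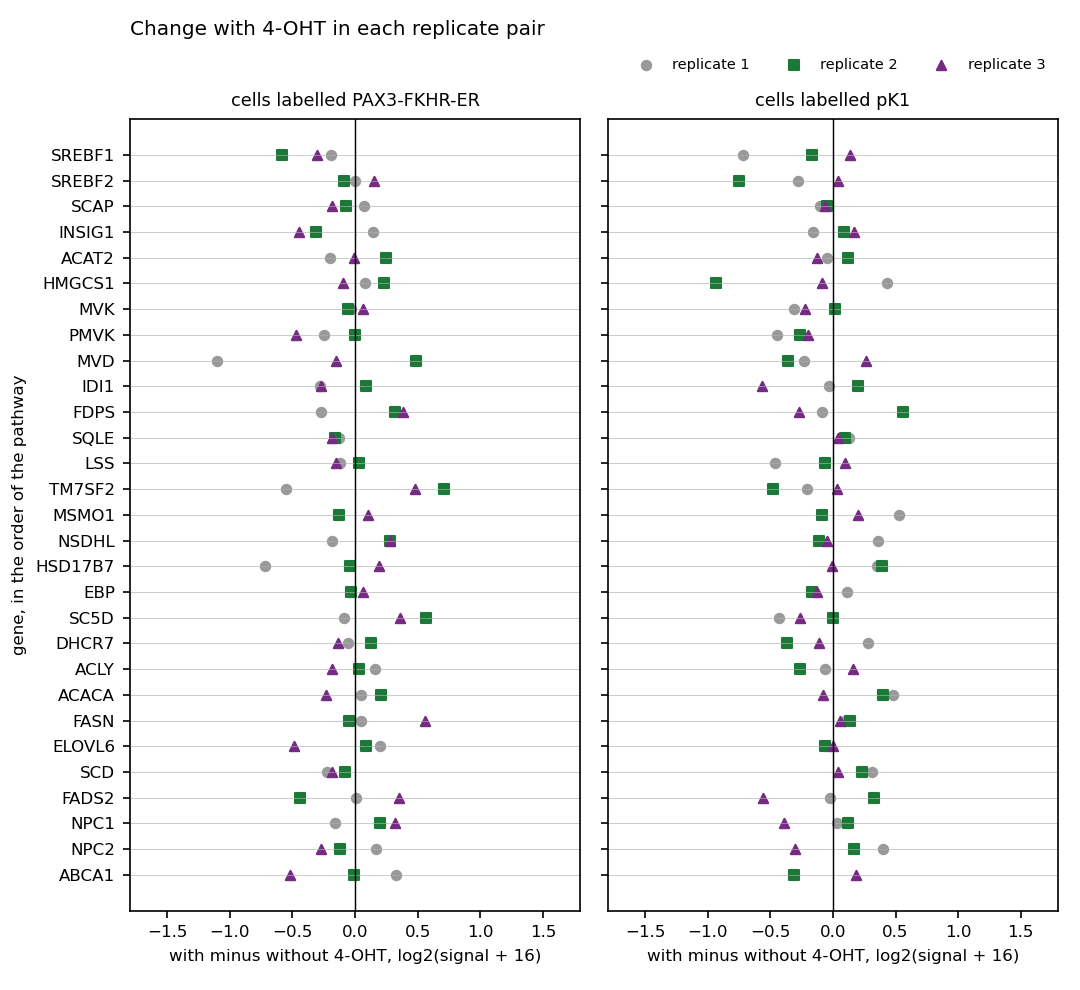
Change with 4-OHT in each replicate pair (horizontal axis, log2(signal + 16) with minus without 4-OHT) for each gene, in cells labelled PAX3-FKHR-ER (left) and pK1 (right). Points of one gene mostly fall on both sides of 0; SQLE and SCD lie left of 0 in PAX3-FKHR-ER and right of 0 in pK1 at all 3 replicate numbers.

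Taken gene by gene, the direction of the 4-OHT response was seldom shared by the 3 pairs. Under PAX3-FKHR-ER 0 of 28 genes were higher with 4-OHT in all 3 pairs, against 13.2% of all probe sets, and 4 (14.3%) were lower, SREBF1, PMVK, SQLE and SCD, against 14.9%. Under pK1 3 genes were higher, SQLE, FASN and SCD, against 12.6%, and 3 lower, SCAP, PMVK and ELOVL6, against 16.6%. Some of these pairs hardly differed, such as PMVK under PAX3-FKHR-ER in replicate 2 (185 against 186) and ELOVL6 under pK1 in replicate 3 (0.00). Genes lower in each PAX3-FKHR-ER pair and higher in each pK1 pair numbered 2 (7.14%), SQLE and SCD, against 1.59% of probe sets, and 0 went the opposite way, against 1.53%. The median change of the 28 genes was -0.02 under PAX3-FKHR-ER and -0.06 under pK1, with -0.01 and -0.03 over all probe sets. In the 8 arrays with the block, 95% intervals of the 4-OHT change lay within 1 log2 unit of 0 on either side for 27 genes under PAX3-FKHR-ER and 28 under pK1, where 88.2% and 91.5% of all probe sets did.

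Between constructs, the sterol enzymes were higher in PAX3-FKHR-ER chiefly in replicate 3. Their median difference with 4-OHT was -0.15, 0.10 and 0.83 in replicates 1, 2 and 3, with 7, 10 and 14 of 16 genes higher. Without 4-OHT it was 0.10, 0.09 and 0.65, with 10, 10 and 12 of 16 higher. The medians over all probe sets lay between -0.04 and 0.05. For all 28 genes the fitted median was 0.12 with and 0.15 without 4-OHT over 12 arrays, against 0.02 and -0.01 for all probe sets, and 0.19 and 0.24 in the 8 arrays.

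In replicates 2 and 3, with and without 4-OHT, 7 of the 28 genes (25.0%) were higher on all 4 PAX3-FKHR-ER arrays than on any pK1 array, against 7.25% of all probe sets, namely SREBF2, ACAT2, HMGCS1, MSMO1, HSD17B7, SC5D and DHCR7. The 4 arrays of a construct come from 2 replicate numbers, so they may not be independent of each other. For HSD17B7 the gap was only 264 against 263. NPC2 alone (3.57%) was lower without overlap, against 6.62%. With the arrays scaled to equal medians those counts were 3, SREBF2, HMGCS1 and MSMO1, and 0. Of the 21 further probe sets, 9 from 6 genes were higher without overlap in the signals as deposited, and they were not counted under that scaling. With replicate 1 included, 0 of 28 genes separated the constructs in either direction, against 0.180% of probe sets higher and 0.203% lower. By pairs, 5 genes (17.9%) were higher with 4-OHT in all 3, SREBF2, ACAT2, MVK, MVD and SC5D, against 12.6% of probe sets, and 1 was lower, NPC2, against 9.88%. In replicate 1 ACAT2 read 276 against 275 and MVD 2.58 against 1.68, so these 2 genes hardly differed there. Without 4-OHT 6 were higher (21.4%), ACAT2, IDI1, SQLE, HSD17B7, DHCR7 and SCD, against 12.4%, and 3 lower, FADS2, NPC1 and NPC2, against 13.3%.

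Among the muscle markers, MYOD1, the master regulator of the myogenic lineage, read 1216, 1912 and 1809 in PAX3-FKHR-ER with 4-OHT and 1006, 1380 and 1111 without, against 2098, 197 and 322 in pK1 with 4-OHT and 1112, 222 and 367 in pK1 without. MYOG, a factor of muscle differentiation, fell by 2.74 with 4-OHT under PAX3-FKHR-ER in the 8 arrays with the block (log2, limma adjusted p = 0.00327), but replicate 1 read 53 with and 13.4 without it. Other muscle markers followed MYOD1 only in part. CDH15 was higher in PAX3-FKHR-ER in replicates 2 and 3, at 330 and 394 with and 471 and 243 without 4-OHT. In pK1 CDH15 read 106 and 220 with 4-OHT and 112 and 232 without, in the same replicates. DES, a muscle filament protein, read 343 and 466 in replicate 3 of PAX3-FKHR-ER with and without 4-OHT, against 862 and 710 in pK1, and CHRNA1, a subunit of the muscle acetylcholine receptor, read 1950 and 1750 there, against 1950 and 1974. In replicate 2 both were lower in pK1, with DES at 85.6 and 89 and CHRNA1 at 245 and 344, against 316 and 500 and 2044 and 2560 in PAX3-FKHR-ER. The summed signal of the 7 muscle probe sets, which the brightest dominate, overlapped between groups and was 3002 to 4652 and 2748 to 5290 in the PAX3-FKHR-ER groups with and without 4-OHT, against 677 to 4409 and 833 to 3393 in pK1 with and without it. The part of these marker values in the sterol gene values was not tested, and in bulk RNA fewer cells of one kind and less RNA per cell cannot be told apart.

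**Figure D4:**
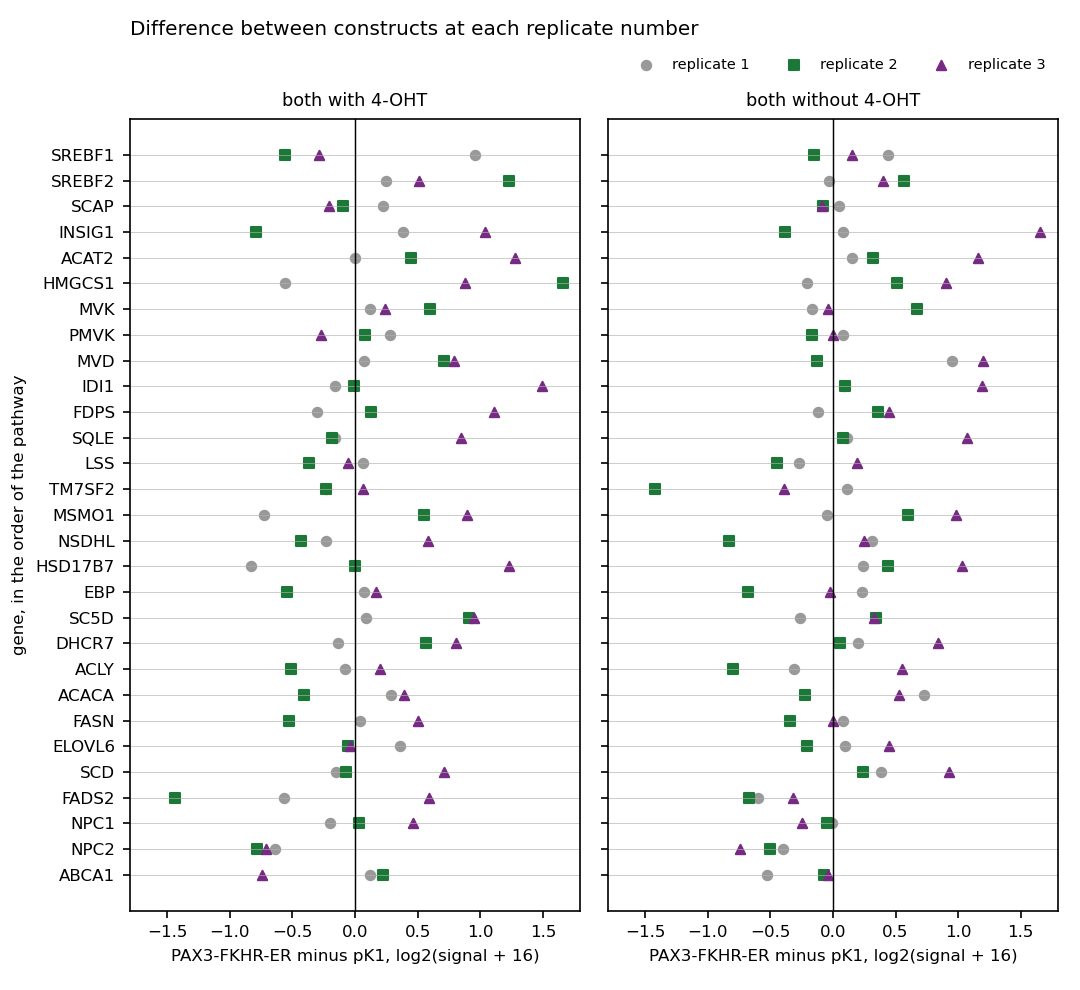
Difference between constructs at each replicate number (horizontal axis, PAX3-FKHR-ER minus pK1, log2(signal + 16)) for each gene, with 4-OHT (left) and without (right). Most sterol enzymes lie right of 0 in replicate 3, replicate 1 lies on both sides, and NPC2 lies left of 0 at all 3 replicate numbers in both panels.

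Other lipid genes, in 6 lists chosen with earlier results known, gave 0 calls in any of the 4 limma fits. They covered the isoprenoid branch (12 tested), processing and degradation of SREBPs (9), fatty acid activation and elongation (12), cholesterol handling (13), fatty acid oxidation (18) and glycerolipid synthesis (14). For 4-OHT under PAX3-FKHR-ER in the 8 arrays with the block, the 3 largest log2 changes of each list are given. In the isoprenoid branch they were 0.36 for RCE1, which trims prenylated proteins, 0.26 for GGPS1, which makes geranylgeranyl diphosphate, and -0.24 for PDSS1, of coenzyme Q synthesis. In SREBP processing they were -0.26 for PRKAB1 and -0.20 for PRKAG1, subunits of the energy sensor AMPK, and 0.25 for MBTPS2, the second SREBP protease. ELOVL2, an elongase of polyunsaturated chains, had 0.86 (limma adjusted p = 0.187), ACSL5, which activates fatty acids, had -0.35, and ME1, a source of NADPH, had 0.26 from pairs of opposite direction, 311 with and 361 without 4-OHT in replicate 2 and 39.3 with and 17.5 without in replicate 3. In cholesterol handling, OSBPL8, an oxysterol-binding protein, was nearest to the threshold of all with 0.58 (limma adjusted p = 0.069). OSBPL8 was also higher with 4-OHT in each pK1 pair, at 346, 421 and 413 with it and 312, 324 and 367 without. In replicate 1 of PAX3-FKHR-ER it read 385 with and 344 without 4-OHT. The lipoprotein receptor LRP1 had -0.63 and MYLIP, which degrades lipoprotein receptors, 0.40. In fatty acid oxidation ECI2 had 0.34 and ACADM -0.33. CPT2 had 0.42, from pairs of opposite direction, 41 with and 81.5 without 4-OHT in replicate 2 and 71.7 with and 12.8 without in replicate 3. In glycerolipid synthesis LPIN1, a phosphatidate phosphatase, had -0.60 (limma adjusted p = 0.129), DGAT1, which completes triglycerides, -0.50, and CHPT1, of phosphatidylcholine synthesis, -0.24.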

How the data were processed

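Total RNA of 12 samples was labelled with biotin and hybridised to U133A arrays, 1 per sample. The deposited values are linear intensity signals per probe set. The submitters' processing notes name the Affymetrix programs GCOS and MAS5, without versions. Their trimmed mean was nearly equal on all arrays, so a change in total RNA per cell cannot be seen. From them log2(signal + 16) was computed here, with no further scaling. Of 22283 deposited probe sets, 68 controls and the 40% with the lowest mean signal (under 36.7) were left out, leaving 13329.

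The main model, limma 3.58.1 under R 4.3.3, fitted the 4 group means by lmFit and moderated them by eBayes with a trend, with two-sided tests and Benjamini-Hochberg adjustment over all probe sets of a contrast. The fits of the 4-OHT contrasts were tested on simulated data without a shift of replicate 1, and the other contrasts were not. Figures used matplotlib 3.10.9. Same-numbered samples were taken as pairs, since deviations from group means correlated above 0.1 in every pair (lowest r = 0.152, between the constructs without 4-OHT in replicate 2). Because replicate 1 stood apart in every group, such correlations can arise without pairing, so they cannot show that samples were paired. Blocked and 8-array fits and other scalings were alternatives. Detection calls and scan dates were not used here, and the number of arrays limits the precision. Members and lists were chosen with earlier results of these data known. All members are named, and other lipid genes by the 3 largest changes of a list. Promoters are from RefSeq.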

Additional observations from a re-analysis of the deposited data

Results flagged for a closer look

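SQLE and SCD were lower with 4-OHT in all 3 PAX3-FKHR-ER pairs and higher in all 3 pK1 pairs. The 4-OHT change under PAX3-FKHR-ER minus that under pK1 was -0.25 (log2) for SQLE and -0.35 for SCD. The limma test of this difference did not pass over 12 arrays, without the replicate block (adjusted p = 1 for both) or with it (adjusted p = 0.926 for both). It did not pass over 8 arrays with the replicate block either (limma adjusted p = 0.678 for SQLE and 0.66 for SCD). Other SCD probe sets gave -0.94, -0.85 and -0.06 in pK1, and the first 2 values were carried by 1 array, replicate 2 with 4-OHT, at 13.8 and 51.3. Further SQLE probe sets gave -0.15 and 0.02 under PAX3-FKHR-ER, against -0.18 and 0.11 under pK1.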

How the results depend on the processing

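Members called stayed at 0 under every alternative that gives a test, the omission of each array included. Probe sets called over 12 arrays were 0 in each comparison. The 8 arrays of replicates 2 and 3 called 1 probe set between constructs without and 13 with 4-OHT. With the replicate block as well they called 186 for 4-OHT under PAX3-FKHR-ER, 7 for the difference, 1 between constructs without and 21 with 4-OHT, and the block changed no call of a member. The median change of the members under pK1 was 0.06 with arrays scaled to equal medians, a scaling that moved the median of all probe sets there by 0.11, and -0.03 with all probe sets of a gene averaged, against -0.06. Equal medians, an alternative chosen after seeing the data for the counts without overlap, left 3 genes higher and 0 lower in PAX3-FKHR-ER, replicates 2 and 3. Leaving out 1 array gave medians of -0.21 to 0.18 for 4-OHT under PAX3-FKHR-ER, -0.25 to 0.16 under pK1, -0.24 to 0.31 for the difference, 0.08 to 0.33 between constructs without 4-OHT and -0.02 to 0.31 with it. Of 3317 member values recomputed, 340 changed sign with no call, 247 of them with 1 array left out. The causes were not tested. Averaging all probe sets of a gene gives no test here.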
